A study of Mus musculus with 13 samples.

Results

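Pericytes are cells that wrap small blood vessels. Here 578 barcodes chosen by pericyte markers were examined for their response to medroxyprogesterone acetate with estradiol (MPA+E) in the mouse mammary gland. Most of them also held UMIs of smooth muscle genes. A barcode was a member when it had at least 2 UMIs of Rgs5, at least 1 UMI among Mcam, Notch3 and Cspg4, and none of Pdgfra, Epcam or Pecam1, within limits of 500 to 7500 genes and at most 10% mitochondrial UMIs. The members were 2.10% of the 27501 barcodes within those limits in 4 libraries. The same rule found 1025 such barcodes among 111246 in all 13 libraries of the series. The study profiled mammary stroma by droplet single-cell RNA sequencing across stages of gland development, under hormones and in a tumour model, and it set pericytes aside as contaminants of its fibroblasts.

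All 4 libraries came from wild-type C57BL/6 females aged 9 weeks, and the sorted cells lacked CD24 and the lineage markers of endothelial, immune and red blood cells. One arm received placebo and the other MPA+E, which the sample labels call the drug. Each arm had 2 libraries, and the study's methods state that each library pooled 2 females. The p-values for MPA+E against placebo below therefore measure the spread between these libraries. Those for the difference from fibroblasts rest on a model of both cell types, and their limit is given there. Placebo 1, placebo 2, MPA+E 1 and MPA+E 2 held 110, 130, 129 and 209 Rgs5+ barcodes with 823618, 948356, 940884 and 985198 UMIs. Their median depth was 7461, 6773.5, 6666 and 4267 UMIs per barcode, lowest in MPA+E 2. A stricter mitochondrial limit of 5% was met by 17.3% and 18.5% of the placebo members and by 37.2% and 47.4% of the MPA+E members, so this sign of RNA quality moved with the arm and its part in the results was not tested. No member barcode was shared between libraries, and 8 to 21 barcodes of any kind were shared by pairs of libraries. Summed levels are given as UMIs per 1000000 UMIs of the member barcodes (CPM), always in the order placebo 1, placebo 2, MPA+E 1 and MPA+E 2.

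Pericytes and vascular smooth muscle cells together form the mural layer of vessels, which holds the endothelium, lays down basement membrane with it and sets vessel tone. Rgs5 encodes a regulator of G-protein signalling, Mcam an adhesion molecule, Notch3 the receptor through which endothelial Jagged instructs mural cells, and Cspg4 the NG2 proteoglycan. Medroxyprogesterone acetate is a synthetic progestin that also binds the glucocorticoid receptor, and estradiol binds the estrogen receptors. Interferons act on most nucleated cells through receptor signalling and interferon regulatory factors, which bind response elements in the promoters of antiviral and antigen-presentation genes.

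The gate genes were used to choose the members and are given only as a description. Rgs5 stood at 1740, 1535, 3140 and 2197 CPM, Notch3 at 711, 667, 666 and 620 CPM, Mcam at 312, 235, 233 and 164 CPM, and Cspg4 at 206, 156, 183 and 111 CPM. At the threshold, 11, 30, 10 and 40 members had exactly 2 Rgs5 UMIs, and 27, 48, 17 and 88 barcodes that met every other condition had only 1. Acta2 stood at 7960, 5979, 6424 and 3929 CPM in those just inside and at 8636, 7545, 7433 and 6360 CPM in those just outside.

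Outside the gate, the vascular smooth muscle markers Myh11 and Lmod1 were more prominent than the pericyte channel genes Abcc9 and Kcnj8. Myh11 stood at 2525, 2535, 1829 and 1623 CPM and Abcc9 at 68.0, 33.7, 354 and 121 CPM. The members are therefore called Rgs5+ barcodes here. A UMI of the smooth muscle genes Myh11 or Cnn1 was found in 90.9%, 96.9%, 81.4% and 86.6% of them. Myh11 alone gave these shares, and Cnn1 had a UMI in 1.82%, 6.92%, 2.33% and 3.83%. Lmod1 had one in 85.5%, 90.8%, 71.3% and 66.5%, Pln in 30.9%, 33.1%, 17.8% and 12.0%, and Actg2 in at most 1.91%. A UMI of Abcc9 or Kcnj8, the subunits of the ATP-sensitive potassium channel known from pericytes, was found in 23.6%, 10.0%, 42.6% and 25.8%. With every barcode thinned to 2000 UMIs these shares were 14.5%, 6.30%, 27.8% and 17.3%, against 7.91%, 6.37%, 3.21% and 2.28% in the 1492, 1491, 1494 and 1494 that reached this depth among 1500 randomly drawn fibroblasts of each library, whose median depth before thinning was 14772, 13219, 17287 and 10520 UMIs. The mix of the barcodes by these markers therefore moved with the arm, and its part in the results was not tested beyond the values by marker class given below. All 7 epithelial markers were at 0 in every library, and so were 5 of the 7 immune markers, Ptprc, C1qa, Lyz2, Cd52 and Tyrobp, while Cd68 had 3, 1, 7 and 3 UMIs and Cd74 had 1 UMI, in placebo 2. Summed endothelial markers stood at 17.0, 8.44, 29.8 and 33.5 CPM, with Cdh5 at 0 in 3 of the libraries. The 9 fibroblast markers summed to 0.173%, 0.193%, 0.109% and 0.209% of UMIs, which was 5.22%, 5.93%, 4.15% and 9.09% of their level in the fibroblasts.

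The first comparison asked which genes differed between MPA+E and placebo in the Rgs5+ barcodes. Interferon-induced genes rose, with Ifit1, Ifi27l2a, Cxcl10, Irf7 and Bst2 among the clearest. A small group of genes with higher levels here than in fibroblasts rose (Art3, Adgrf5, Tspan15, Tmem176a and Fabp5), and another fell (Rergl, Cck, Fam81a and Chchd10). Among the 7710 genes tested with edgeR's quasi-likelihood test, 57 were called higher (0.739% of those tested) and 4 lower (0.0519%) at a Benjamini-Hochberg adjusted p under 0.05. The median log2 fold change over all tested genes was 0.01. Both MPA+E libraries lay above both placebo libraries for 1702 genes (22.1%) and below both for 1249 (16.2%), and the arms did not overlap for any of the 61 called genes. Leaving out 1 library, so that the remaining one of its arm is assumed to vary like the other arm, raised the number of calls to 170 or 109 when placebo 1 or placebo 2 was dropped, and to 304 or 507 when MPA+E 1 or MPA+E 2 was dropped. Of the 61 genes, 59, 52, 60 and 61 remained called in these fits, with no change of sign.

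**Figure D1:**
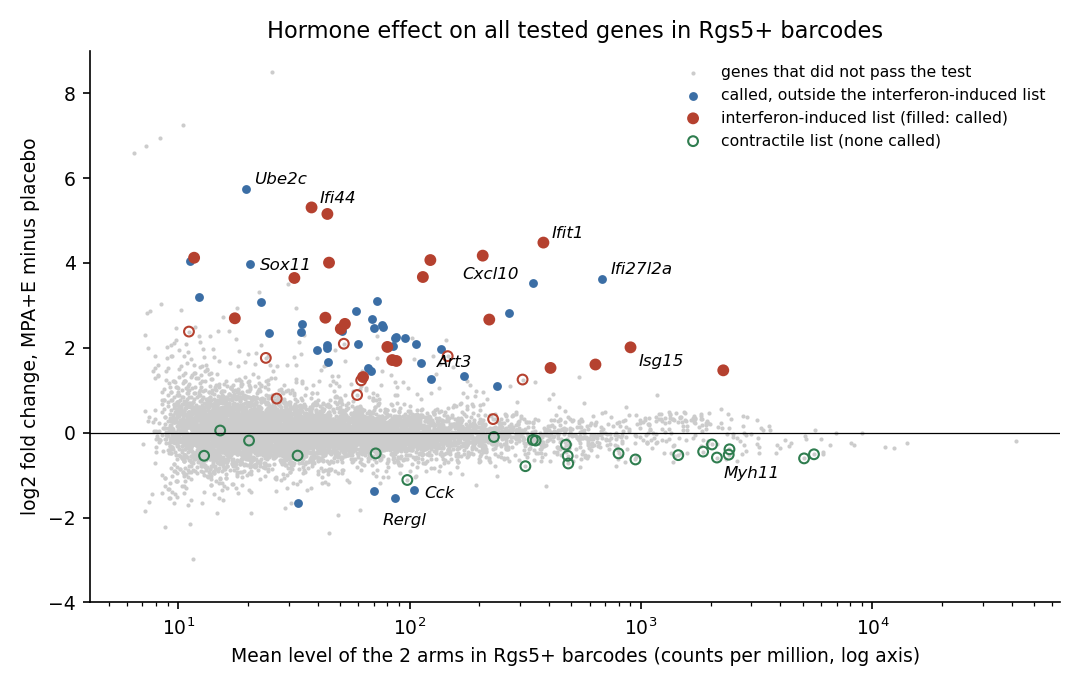
Log2 fold change of MPA+E against placebo for each tested gene (y axis) by its mean level in the Rgs5+ barcodes (x axis, CPM, log axis), with interferon-induced genes as red circles, filled where called, other called genes in blue and contractile genes as green rings. The filled red circles lie between 1.31 and 5.31, and all but 1 of the green rings lie below 0; the grey points above 6 are uncalled genes with no placebo UMIs, Cenpf and Hmmr among them.

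The promoters of 4 of the rising genes are shown first. They were picked from the called interferon-induced genes because they held a short element before the start. Its presence in all 4 is therefore fixed by the choice. The stretches are from RefSeq on GRCm38.p6, 5′ to 3′ on the strand of the gene, and end before its annotated start. Capitals mark each match to GAAANNGAAA or its reverse complement TTTCNNTTTC, the core of the interferon-stimulated response element, which was chosen for the search after the expression values had been seen. Ifit1 lies at chr19:34640760-34640838 (+), Ifit3 at chr19:34583348-34583441 (+), Bst2 at chr8:71537562-71537627 (-) and Rsad2 at chr12:26456538-26456597 (-).
Ifit1: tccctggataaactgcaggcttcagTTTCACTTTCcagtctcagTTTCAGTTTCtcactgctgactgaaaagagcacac
Ifit3: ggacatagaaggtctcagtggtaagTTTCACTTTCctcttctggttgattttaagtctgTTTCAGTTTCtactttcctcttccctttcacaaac
Bst2: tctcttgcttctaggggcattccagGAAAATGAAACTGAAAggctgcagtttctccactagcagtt
Rsad2: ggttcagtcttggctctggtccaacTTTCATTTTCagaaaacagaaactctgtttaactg

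Matches began 104 and 85 bases before the start in Ifit1, 156 and 122 bases before it in Ifit3, 130 and 124 bases before it in Bst2, where they overlap, and 120 bases before it in Rsad2. Over windows of 300 bases (250 before and 50 after a start, both strands), 1131 of 32851 promoters (3.44%) held the element. Of the 57 genes called higher, 47 had a promoter in the table and 20 of these (42.6%) held it, against 3.96% of the 6132 tested genes with a promoter. It was found in 10 of 19 called genes of the interferon-induced list, in 10 of 28 genes called higher outside that list and in none of the 4 called lower.

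The interferon-induced list held 32 genes, of which 31 passed the filter on low counts. Of these, 22 were called higher and none lower, and for all 31 both MPA+E libraries lay above both placebo libraries, against 22.1% of all tested genes. The median log2 fold change was 2.10, against 0.01 over all tested genes. Summed over the list, the level was 2958, 3004, 9332 and 11986 CPM, and the mean of the MPA+E libraries was 3.58 times that of the placebo libraries. The 2 placebo libraries were nearly equal, and MPA+E 2 was the highest of the 4.

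Ifit1, whose protein binds viral RNA that lacks host cap methylation, stood at 19.4, 43.2, 606 and 846 CPM, a log2 fold change of 4.48 ± 0.364 (SE, n = 2 per arm; adjusted p 0.000911). Ifit3, its binding partner, stood at 18.2, 24.3, 282 and 503 CPM (4.17 ± 0.372, adjusted p 0.00133). Ifit3b, which lies between Ifit3 and Ifit1 on chromosome 19 and is nearly identical to Ifit3, stood at 3.64, 1.05, 47.8 and 124 CPM (5.15 ± 0.725, adjusted p 0.0114). Because reads of Ifit3 and Ifit3b can be exchanged, the separate levels of this pair are uncertain. Ifit3b was not called with limma-voom (4.87, adjusted p 0.30) or at the 5% mitochondrial limit (4.24, adjusted p 0.0708), and its log2 fold change was 6.13, 4.52 and 4.21 without placebo 1, placebo 2 and MPA+E 2. Ifi44 rested on 3 placebo UMIs in all against 142 under MPA+E, with 0, 3.16, 74.4 and 73.1 CPM, a ratio of 43.5 with an exact 95% counting interval of 14.6 to 214 (fitted log2 fold change 5.31 ± 0.547, adjusted p 0.00313). Ifi44 moved to 4.40 and 9.08 without placebo 1 and placebo 2, and Ifit1 to 5.21 without placebo 2, and both remained called. In each of these genes the placebo libraries were low and both MPA+E libraries were high.

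The transcription factors and signalling genes of the pathway had positive log2 fold changes of very different size. Irf7, the factor that amplifies interferon production, stood at 8.50, 17.9, 205 and 260 CPM (4.07 ± 0.334, adjusted p 0.000911). Irf9 and Stat2, which act at the response element, had log2 fold changes of 0.89 and 0.80 and did not pass the test (adjusted p 0.204 and 0.471). Usp18, which strips ISG15 from proteins and dampens the receptor, rose by 3.65 on the log2 scale (adjusted p 0.00536). Without placebo 2 the value of Irf7 was 4.75.

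Effectors differed widely in level. Isg15, a ubiquitin-like protein attached to other proteins during the response, stood at 288, 420, 1008 and 1888 CPM (2.01 ± 0.330, adjusted p 0.0280), and without MPA+E 2 its log2 fold change was 1.39. Bst2, the tetherin that holds virus particles at the cell surface, stood at 49.8, 67.5, 374 and 392 CPM (2.67 ± 0.230, adjusted p 0.00115). Rsad2, which encodes viperin, stood at 9.71, 22.1, 181 and 244 CPM (3.67 ± 0.355, adjusted p 0.00229), and gave 4.43 without placebo 2. Ifitm3, a membrane protein that blocks virus entry, was the most abundant of the list at 1162, 1211, 3084 and 3611 CPM (1.47 ± 0.178, adjusted p 0.00587).

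Antigen-presentation genes of the list differed in log2 fold change. B2m, the light chain of class I major histocompatibility molecules, stood at 344, 276, 927 and 995 CPM (1.61 ± 0.188, adjusted p 0.00536). The heavy chain H2-D1 stood at 203, 211, 511 and 700 CPM (1.53 ± 0.225, adjusted p 0.0149), and H2-K1 gave 1.25 and an adjusted p of 0.0514. Psmb8, an immunoproteasome subunit, stood at 18.2, 12.7, 71.2 and 99.5 CPM (2.45 ± 0.329, adjusted p 0.00954), and was not called at the 5% mitochondrial limit (2.08, adjusted p 0.0605). Class I heavy chains and guanylate-binding proteins belong to families of close copies, so their single-gene levels are uncertain. Ifi27 gave the smallest value of the list, 206, 196, 286 and 229 CPM and a log2 fold change of 0.32 with an adjusted p of 0.690.

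**Figure D2:**
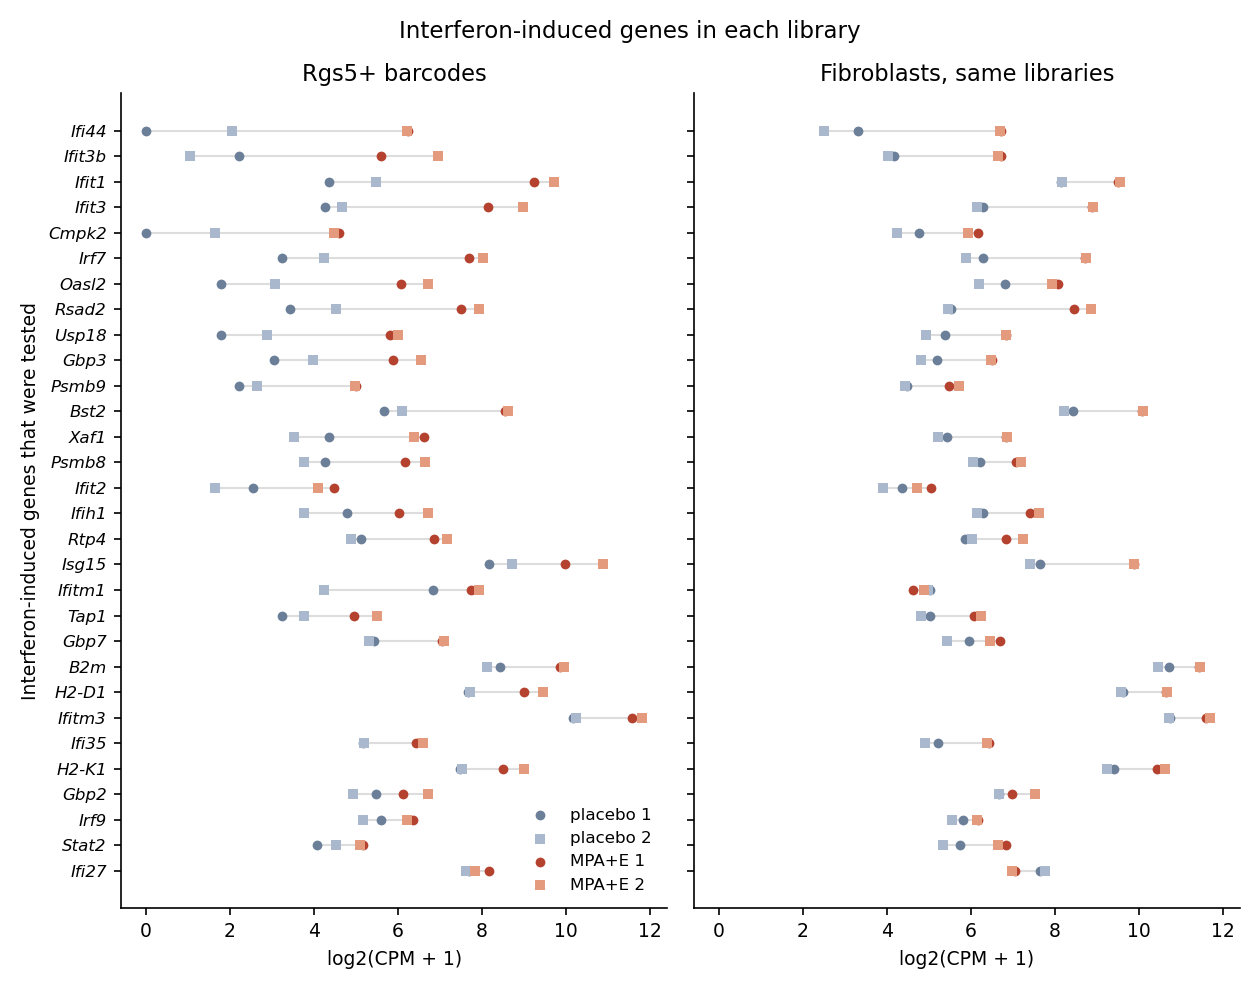
Levels of tested interferon-induced genes in each library as log2(CPM + 1) (x axis), in Rgs5+ barcodes (left) and in fibroblasts of the same libraries (right); blue symbols are placebo and red or orange symbols MPA+E, with circles for library 1 and squares for library 2. On the left every MPA+E symbol lies to the right of both placebo symbols, from Ifi44 with the largest log2 fold change (5.31) to Ifi27 with the smallest (0.32).

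Outside the list, 35 further genes were called higher. Ifi27l2a, an interferon-stimulated gene next to Ifi27 on chromosome 12, stood at 91.1, 108, 1137 and 1381 CPM (3.63 ± 0.226, adjusted p 0.000221). Cxcl10, the interferon-inducible chemokine that attracts T cells, stood at 60.7, 46.4, 607 and 655 CPM (3.53 ± 0.223, adjusted p 0.000221). Ly6e, an interferon-inducible membrane protein gene, stood at 63.1, 67.5, 468 and 475 CPM (2.82 ± 0.202, adjusted p 0.000473). These 3 had the smallest adjusted p-values of all called genes and were named after their values had been seen. In each, the 2 libraries of an arm lay close together and far from those of the other arm. At the 5% mitochondrial limit the value was 2.56 for Ifi27l2a, 2.36 for Cxcl10 and 2.89 for Ly6e, all still called. Ifi27l2a was not called in barcodes with a UMI of Abcc9 or Kcnj8 (2.01, adjusted p 0.165), nor was Cxcl10 in those with Myh11 or Cnn1 and neither of these (3.19, adjusted p 0.353), marker classes that were chosen after seeing the data.

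The change was spread over many barcodes. With every barcode thinned to 2000 UMIs, leaving out 7 shallower ones (3 in placebo 2, 3 in MPA+E 1 and 1 in MPA+E 2), the median number of listed genes with a UMI per barcode was 3, 3, 6 and 6 (7, 6, 11 and 9 before thinning). At least 8 listed genes were found in 3.64% and 6.30% of the placebo barcodes and in 36.5% and 43.8% of the MPA+E barcodes. The thinned share of barcodes with an Ifit1 UMI was 1.82%, 6.30%, 28.6% and 39.4%, and 7.27%, 7.69%, 35.7% and 44.5% before thinning. In the 1500 fibroblasts drawn per library, thinned alike, the median was 5, 5, 9 and 9 genes.

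**Figure D3:**
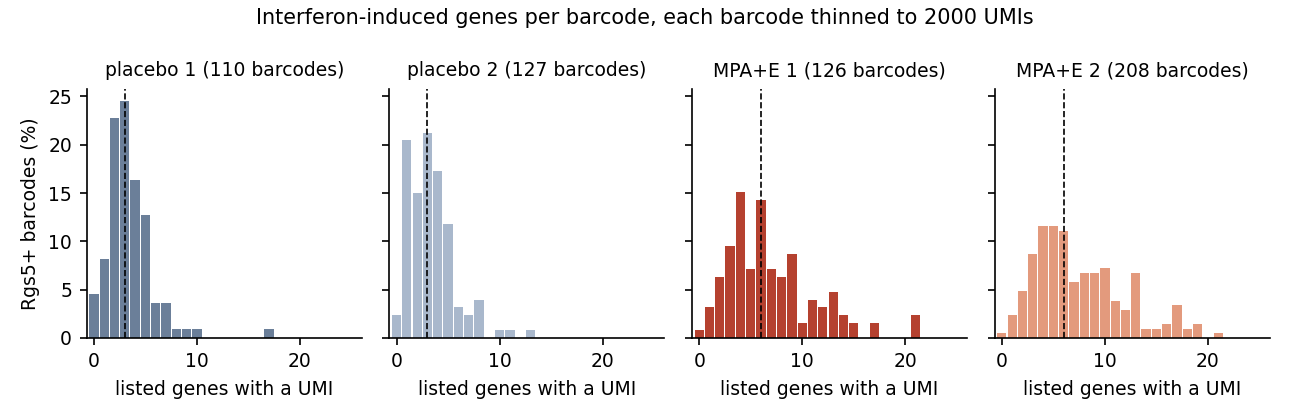
Share of Rgs5+ barcodes (y axis, percent) by the number of listed interferon-induced genes with a UMI (x axis) after thinning each barcode to 2000 UMIs, 1 panel per library, with a dashed line at the median. The medians are 3 in both placebo panels and 6 in both MPA+E panels, and few placebo barcodes reach 8 genes.

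Fibroblasts, far more numerous in the same libraries, held more of the same list under either treatment. Their summed level was 7046, 6423, 15178 and 15854 CPM, and the level in Rgs5+ barcodes was 42.0%, 46.8%, 61.5% and 75.6% of it. By comparison, the 9 fibroblast markers in the Rgs5+ barcodes summed to no more than 9.09% of their fibroblast level, though Gsn alone stood at 1348 CPM against 7149 CPM in the fibroblasts of MPA+E 2. The 22 called interferon-induced genes stood at 24.3% to 129% of the fibroblast level in MPA+E 1 (median 62.2%) and at 35.2% to 201% in MPA+E 2 (median 71.3%). Of all 61 called genes, only Plac8 and Gpx3 were within 2 times the marker ratio in both MPA+E libraries. Gpx3, an extracellular glutathione peroxidase, stood at 77.7, 33.7, 199 and 238 CPM against 552, 642, 2502 and 2342 CPM in the fibroblasts. With barcodes of a fibroblast marker share above 0.5% removed, 98 genes were called and Gpx3 no longer was (log2 fold change 2.07, adjusted p 0.0609).

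The next group of genes was defined by a level at least 2 times that of the fibroblasts in the mean of the 4 libraries, so a rise under MPA+E helped a gene to enter it. In the placebo libraries Adgrf5 stood at 136% and 129% of the fibroblast level, Fabp5 at 222% and 160% and Sox11 at 113% and 0%. Art3, a member of the ADP-ribosyltransferase family, stood at 59.5, 46.4, 192 and 148 CPM (1.65 ± 0.223, adjusted p 0.00954). Cxcl10 (chr5:92346638-92348889) lies within the span of Art3 (chr5:92331827-92414628) on the opposite strand. Reads in that stretch are told apart by strand, and the 3′ end of Art3 lies outside it. Within barcodes with a UMI of Abcc9 or Kcnj8, Art3 stood at 148, 76.2, 358 and 351 CPM, and within those with Myh11 or Cnn1 and neither of these it stood at 38.9, 42.3, 57.7 and 57.6 CPM. The arms did not overlap in either class. Restricted to barcodes with a UMI of Myh11 or Cnn1 the call was lost (1.10, adjusted p 0.0780), as it was in the barcodes with Myh11 or Cnn1 alone (0.48, adjusted p 0.999). With an Abcc9 or Kcnj8 UMI (1.62, adjusted p 0.0771) and at the 5% mitochondrial limit (1.58, adjusted p 0.0822) the fold was close to that of all members, but the threshold was missed.

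Adgrf5, an adhesion G-protein-coupled receptor, stood at 17.0, 14.8, 70.1 and 56.8 CPM (1.96 ± 0.289, adjusted p 0.0149). Fabp5, a fatty acid carrier, stood at 37.6, 29.5, 92.5 and 104 CPM (1.52 ± 0.246, adjusted p 0.0256), and in the fibroblasts at 16.9, 18.5, 9.75 and 9.02 CPM. Tspan15, a tetraspanin partner of the protease ADAM10, stood at 43.7, 28.5, 115 and 86.3 CPM (1.45 ± 0.265, adjusted p 0.0481). Tmem176a stood at 77.7, 65.4, 179 and 175 CPM (1.27 ± 0.20, adjusted p 0.0213). The arms were apart in all 4 genes, and placebo 2 was the lowest library in each. Without placebo 2 the calls of Fabp5 (1.37, adjusted p 0.0516), Tspan15 (1.18, adjusted p 0.141) and Tmem176a (1.17, adjusted p 0.110) were lost. Fabp5 and Tspan15 also missed the threshold with DESeq2 (adjusted p 0.0512 and 0.0833), and Tspan15 did with limma-voom (0.0618). At the 5% mitochondrial limit Adgrf5 (1.57, adjusted p 0.145), Tspan15 (1.72, 0.118) and Tmem176a (1.42, 0.109) were not called, and under a stricter gate (at least 3 Rgs5 UMIs and 2 of the other markers) Tmem176a was not (0.95, 0.0743). In the barcodes with a UMI of Abcc9 or Kcnj8, fewer in number, none of the 4 passed the test. The log2 fold change there was 2.31 for Fabp5 (adjusted p 0.105), larger than over all members, and 1.24 for Tspan15 (0.254), while it was 0.79 for Adgrf5 (0.448) and 0.41 for Tmem176a (0.717). In those with Myh11 or Cnn1 alone it was 0.60 for Fabp5 (adjusted p 0.999), 0.92 for Tspan15 (0.779) and 1.12 for Tmem176a (0.192), and Adgrf5 was not tested. In all barcodes with a UMI of Myh11 or Cnn1, Fabp5 (1.16, adjusted p 0.0850) and Tspan15 (1.25, 0.0648) missed the threshold and Adgrf5 (2.47, 0.0217) and Tmem176a (1.29, 0.0125) passed it.

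Thbd and Sox11 rested on few barcodes. Thbd, the thrombin receptor thrombomodulin, had 19, 5, 86 and 112 UMIs, and 1 barcode held 65.1% of those in MPA+E 1 and another 38.4% of those in MPA+E 2. Under the stricter gate its log2 fold change went from 2.87 to 0.77 (adjusted p 0.750). Sox11, a developmental transcription factor, had 4, 0, 34 and 40 UMIs in 3, 0, 7 and 13 barcodes (3.97 ± 0.661, adjusted p 0.0291), a ratio of 17.0 with an exact 95% counting interval of 6.37 to 64.1. Its log2 fold change was 8.18 without placebo 1 and 2.94 without placebo 2, and the call was lost with limma-voom (adjusted p 0.108), at the 5% mitochondrial limit (0.0925) and at no more than 5000 genes per barcode (0.0736). For Thbd the value was 4.17 without placebo 1 and 2.14 without placebo 2, and the 5% limit (adjusted p 0.0757) and equal numbers of barcodes (0.0535) lost the call as well.

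All 4 genes called lower stood at more than 2 times their fibroblast level, which was 3.27 CPM or less in every library. Rergl, a RAS-like protein gene, stood at 118, 137, 44.6 and 45.7 CPM (-1.53 ± 0.223, adjusted p 0.0145). Cck, which encodes the peptide cholecystokinin, stood at 126, 171, 67.0 and 53.8 CPM (-1.34 ± 0.238, adjusted p 0.0416). Fam81a stood at 91.1, 111, 40.4 and 39.6 CPM (-1.37 ± 0.235, adjusted p 0.0341). Chchd10, a mitochondrial protein gene, stood at 44.9, 54.8, 17.0 and 15.2 CPM (-1.66 ± 0.306, adjusted p 0.0494). Both MPA+E libraries lay below both placebo libraries in all 4, and placebo 2 was the highest library in each. Without placebo 2, Cck (-1.08, adjusted p 0.114), Fam81a (-1.20, adjusted p 0.0872) and Chchd10 (-1.49, adjusted p 0.0892) missed the threshold. By DESeq2 the adjusted p was 0.197 for Chchd10 and 0.0833 for Fam81a, and by limma-voom it was 0.0747 for Chchd10, 0.0511 for Fam81a and 0.0571 for Cck, with folds close to those above. At the 5% mitochondrial limit Rergl (-2.44, adjusted p 0.115), Fam81a (-1.33, 0.498) and Cck (-0.95, 0.621) missed the threshold and Chchd10 was not tested, and with equal numbers of barcodes Rergl (-1.27, 0.0879) and Chchd10 (-1.65, 0.0551) missed it. Chchd10 also missed it under the stricter gate (-1.53, 0.0656) and with DESeq2 size factors in edgeR (-1.67, 0.0544). In barcodes with Myh11 or Cnn1 and neither channel gene, Rergl stood at 139, 157, 69.3 and 68.2 CPM, and none of the 4 passed the test there, with log2 fold changes of -1.13 for Rergl (adjusted p 0.116), -1.34 for Chchd10 (0.292), -0.89 for Fam81a (0.506) and -0.83 for Cck (0.793). In all barcodes with a UMI of Myh11 or Cnn1 the 4 remained called (adjusted p 0.0134, 0.0406, 0.0398 and 0.0244 in that order).

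The contractile genes of smooth muscle gave no single call but nearly all shared a sign. Of 24 listed genes 23 were tested, none was called, 22 had negative log2 fold changes and the median was -0.51 against 0.01 over all tested genes. Both MPA+E libraries lay below both placebo libraries for 18 of the 23, against 16.2% of all tested genes. Summed over the list the level was 32310, 31750, 24100 and 22256 CPM. Acta2, smooth muscle actin, stood at 6244, 5867, 4490 and 3667 CPM (-0.61 ± 0.154, adjusted p 0.157). Myh11, smooth muscle myosin, stood at 2525, 2535, 1829 and 1623 CPM (-0.59 ± 0.155, adjusted p 0.188). Pln, the phospholamban that restrains the calcium pump of the sarcoplasmic reticulum, gave the most negative value, 159, 106, 75.5 and 49.7 CPM (-1.11 ± 0.262, adjusted p 0.122).

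Leaving out 1 library moved the number of calls, as it did over all genes, and kept the sign of most contractile genes. Without MPA+E 2 all 23 tested were negative (median -0.52), with Acta2 at -0.54 and Myh11 at -0.58. The median was -0.45 without MPA+E 1, -0.61 without placebo 1 and -0.42 without placebo 2. In the few barcodes with no UMI of Myh11 or Cnn1 (10, 4, 24 and 28), 14 contractile genes could be tested and the median was 0.07. Divided by marker, the sum was 19884, 16764, 11720 and 14569 CPM in barcodes with Abcc9 or Kcnj8 and 35205, 33932, 34136 and 26189 CPM in those with Myh11 or Cnn1 alone. Myh11 and Cnn1 are themselves in the contractile list, so its level in these classes is partly fixed by the choice of barcodes. The sums of the arms overlapped in the second of these classes, where all 22 tested genes had negative values (median -0.20). In the first class 16 of 17 were negative (-0.51), and in all barcodes with a UMI of Myh11 or Cnn1 22 of 23 were (-0.35). In bulk sums a smaller share of cells of one type and less RNA per cell cannot be told apart.

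Of 20 pericyte identity genes outside the gate, 19 were tested, none was called and the median was 0.19. The calls depended on the setting, with 4 called higher under the stricter gate (97 of 6642 over all genes). With the replicate number as a block 4 were called higher (147 of 7710 over all genes). When 1 library was left out the median was 0.13 to 0.25. Abcc9 stood at 68.0, 33.7, 354 and 121 CPM (2.18 ± 0.467, adjusted p 0.0889) and Kcnj8 at 52.2, 19, 257 and 82.2 CPM (2.22 ± 0.534, adjusted p 0.130). These neighbours on chromosome 6 were highest in MPA+E 1, and both were called when any of the 4 libraries was left out, with log2 fold changes from 1.29 (without MPA+E 1) to 2.71 (without MPA+E 2) for Abcc9 and from 1.26 (without MPA+E 1) to 3.03 (without placebo 1) for Kcnj8. Vtn, the matrix protein vitronectin, stood at 86.2, 66.4, 316 and 148 CPM (1.56 ± 0.320, adjusted p 0.0772). Vtn was called with DESeq2 (adjusted p 0.0124) and when any of the 4 libraries was left out, with values from 0.99 (without MPA+E 1) to 1.95 (without MPA+E 2), but not with limma-voom (0.110) or at the 5% mitochondrial limit (0.254). Higd1b stood at 114, 139, 300 and 220 CPM (0.99 ± 0.217, adjusted p 0.0954). Pdgfrb, the receptor that recruits pericytes to vessels, stood at 426, 318, 559 and 378 CPM, and its arms overlapped. In the barcodes with no Myh11 or Cnn1 UMI the fitted values of Abcc9 and Kcnj8 were negative (-0.54 and -0.49).

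**Figure D4:**
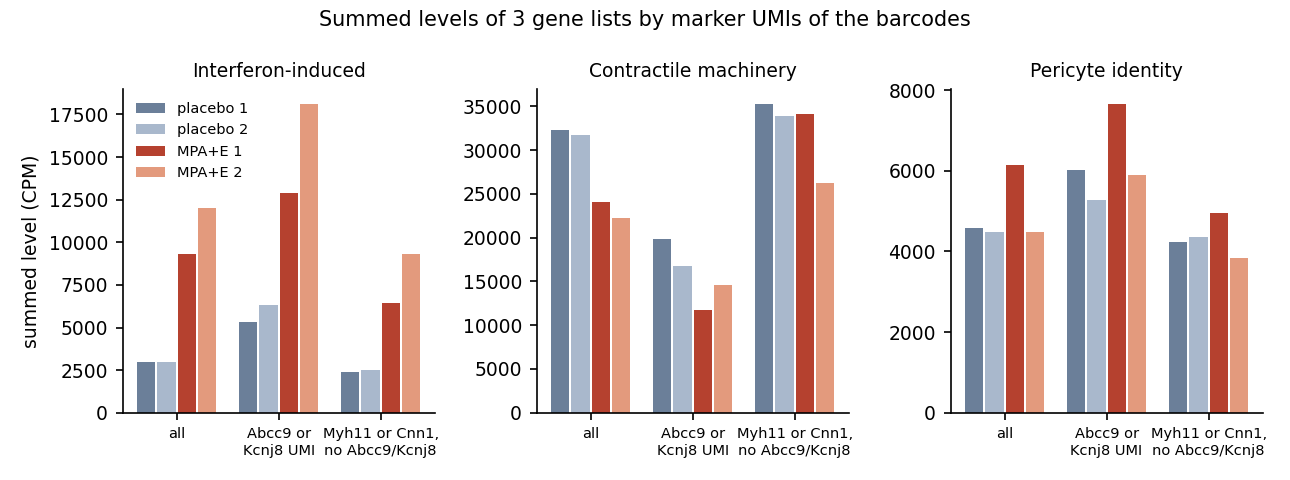
Summed level (y axis, CPM, from 0) of the interferon-induced, contractile and pericyte identity lists in each library, for all Rgs5+ barcodes, those with an Abcc9 or Kcnj8 UMI, and those with a Myh11 or Cnn1 UMI and neither of these. The interferon-induced bars of both MPA+E libraries exceed both placebo bars in all 3 sets, while the contractile bars overlap between arms in the last set (35205, 33932, 34136 and 26189 CPM). Abcc9 and Kcnj8 are in the pericyte identity list and Myh11 and Cnn1 in the contractile list, so the differences of these lists between sets are partly fixed by the choice of barcodes.

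Within each marker class the interferon-induced sum kept its order. It was 5320, 6313, 12919 and 18089 CPM in barcodes with Abcc9 or Kcnj8 and 2407, 2527, 6424 and 9335 CPM in those with Myh11 or Cnn1 alone. In the second class 14 of 28 tested members were called higher, and in the first, with 26, 13, 55 and 54 barcodes, 3 of 27. Over all genes 24 of 6478 were called higher in the second class and 12 of 3550 in the first. All tested members of the list had positive values in both classes. Among barcodes with no Myh11 or Cnn1 UMI (10, 4, 24 and 28), 15 members could be tested, 13 were positive and none was called, as was no other of the 1433 genes tested there (107 at an unadjusted p under 0.05).

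Vessel tone, signalling and matrix lists gave few or no calls. None of the tested genes was called among 20 vasoactive receptors and effectors (median -0.22), 16 ion channels and pumps (-0.37), 10 Notch pathway genes (-0.25), 19 signals to the endothelium (-0.40), 20 PDGF and TGF-beta receptors and modulators (-0.30), 15 genes of the IGF axis (-0.07), 26 immediate early and heat shock genes (-0.16), 18 glycolysis and hypoxia genes (-0.09) or 8 genes of progenitor fibroblasts. Without MPA+E 2 the median was -0.24 for the vasoactive genes, -0.43 for ion channels, -0.23 for Notch and -0.38 for endothelial signals. It was -0.36 for the PDGF and TGF-beta list, -0.09 for the IGF axis and -0.30 for the immediate early and heat shock genes. The median of 11 progenitor genes was -1.93 in that fit. Its only MPA+E library, MPA+E 1, had the lowest share of fibroblast markers (0.109% of UMIs), and a link between the 2 was not tested. Kcna5, a voltage-gated potassium channel of vascular muscle, stood at 68.0, 82.2, 39.3 and 29.4 CPM (-1.17 ± 0.257, adjusted p 0.0983), and P2rx1, the ATP-gated channel, at 119, 117, 74.4 and 51.8 CPM (-0.94 ± 0.222, adjusted p 0.124). Agtr1a, the angiotensin II receptor, stood at 40.1, 34.8, 99.9 and 51.8 CPM (0.97 ± 0.315, adjusted p 0.310). None of these 3 passed the test. Their arms did not overlap, which also held for 22.1% of all tested genes in the higher direction and 16.2% in the lower.

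No gene was called among 26 of interstitial matrix (median 0.27) or 16 of basement membrane (0.32), but the matrix values moved with the choice of barcodes and libraries. In barcodes with a fibroblast marker share of at most 0.5%, 6 of 25 interstitial matrix genes were called higher and the median was 0.83. Over all genes 94 of 7543 were called higher there. At the 5% mitochondrial limit the median was -0.19 and in barcodes with an Abcc9 or Kcnj8 UMI -0.36, each with 1 of 24 genes called lower. Over all genes 12 of 4002 and 10 of 3550 were called lower in these sets. The basement membrane median was 0.56 without MPA+E 2 and 0.06 without MPA+E 1, and that of interstitial matrix 0.26 and 0.28. Col6a1, a chain of type VI collagen, stood at 118, 89.6, 312 and 186 CPM (1.23 ± 0.257, adjusted p 0.0820), Col5a3 at 30.4, 33.7, 154 and 72.1 CPM (1.76 ± 0.347, adjusted p 0.0650) and the laminin chain Lamb1 at 23.1, 20.03, 75.5 and 47.7 CPM (1.47 ± 0.308, adjusted p 0.0820). All 3 were highest in MPA+E 1 and had higher levels in fibroblasts. At the low fibroblast marker share, Col5a3 (2.28, adjusted p 0.0231) and Lamb1 (2.11, adjusted p 0.0364) passed the test. One gene each was called higher among 20 adhesion and junction genes (Art3) and 19 chemokines, cytokines and complement genes (Cxcl10), and 2 among 17 lipid handling genes (Fabp5 and Gpx3).

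**Figure D5:**
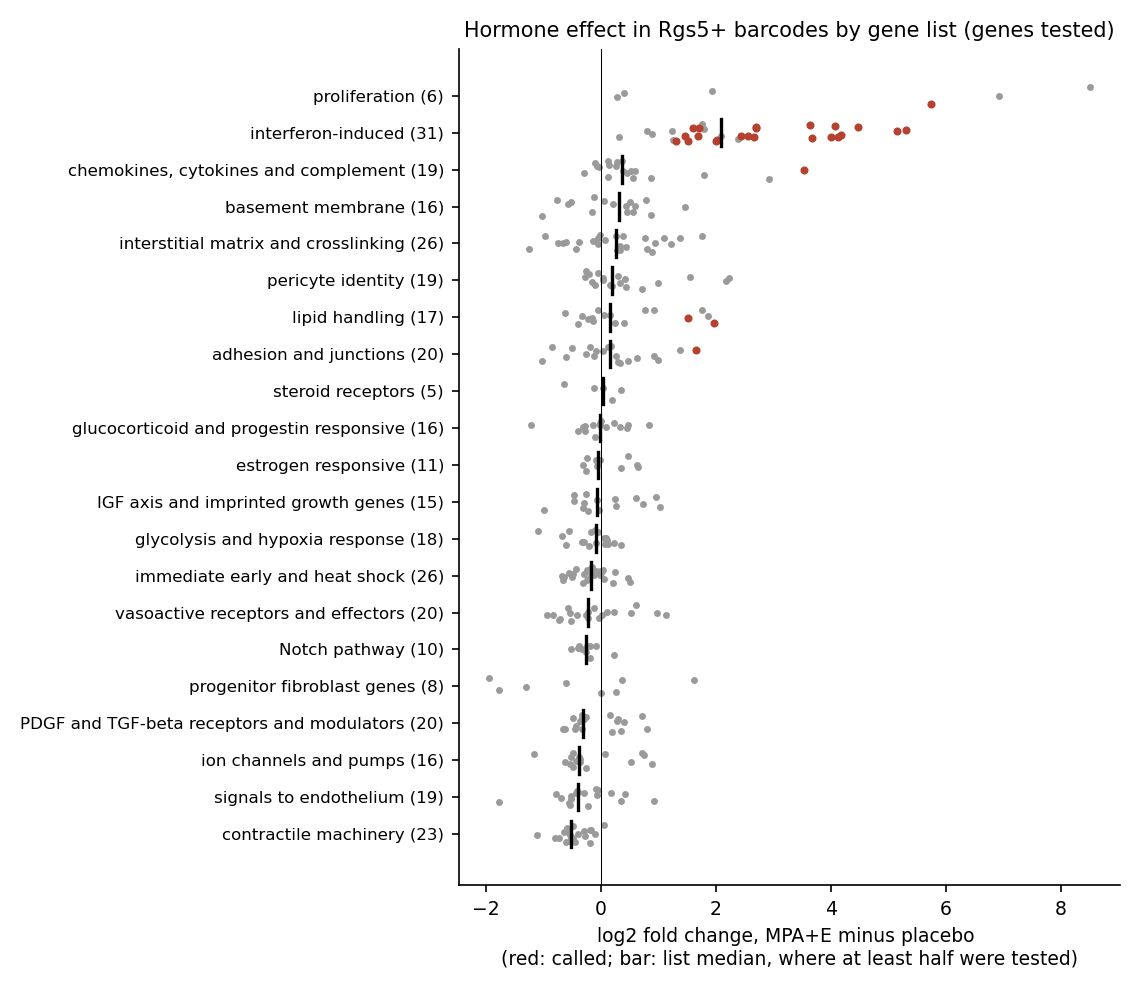
Log2 fold change of MPA+E against placebo (x axis) of each tested member of the 21 gene lists (number tested in brackets), with called genes in red and a bar at the list median where most of the list was tested. The bar of the interferon-induced list stands at 2.10 and those of the other lists with a bar between -0.51 and 0.38; the proliferation list has no bar, and its 6 tested genes have a median of 3.85.

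UMIs of the estrogen receptor Esr1 and the progesterone receptor Pgr were scarce. Esr1 had 4, 6, 6 and 4 UMIs and Pgr 3, 2, 1 and 6 UMIs over all Rgs5+ barcodes, too few to be tested. The glucocorticoid receptor Nr3c1 stood at 171, 119, 204 and 175 CPM (0.36, adjusted p 0.695). In the fibroblasts Esr1 stood at 72.0, 64.6, 17.4 and 23.4 CPM and Pgr at 9.10, 12.4, 38.0 and 60.0 CPM. Of 22 listed glucocorticoid- and progestin-responsive genes 16 were tested, none was called and the median was -0.01. This moved with the library left out, since the median was -0.59 without MPA+E 2 and 0.26 without MPA+E 1. Tsc22d3, a glucocorticoid-induced zipper protein, stood at 104, 120, 97.8 and 117 CPM (-0.10, adjusted p 0.941). Of 18 estrogen-responsive genes 11 were tested, none was called and the median was -0.05. With 1 library left out this median was 0.04 to 0.10. Greb1, a classical estrogen target, had 0, 0, 12 and 8 UMIs in the Rgs5+ barcodes and 6.19, 6.67, 102 and 90.2 CPM in the fibroblasts, and was not tested in the Rgs5+ barcodes.

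The perfect steroid response element GNACANNNTGTNC was found in 0.475% of all promoter windows and the estrogen response element GGTCANNNTGACC in 0.0700%. Both read the same on either strand. Neither was found in the 47 genes called higher or the 4 called lower that had a promoter in the table, which says only that these letters are not in these windows.

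UMIs of 10 cell-cycle genes lay mostly in 4 barcodes under MPA+E. These 10 leave out Pcna, Mcm2, Mcm3, Mcm5, Mcm6, Stmn1, Tyms and Rrm2 of the 18 proliferation genes in the files. Over all 18 the sum was 176, 161, 766 and 363 CPM, and its spread over barcodes was not counted. Over the 10, no placebo barcode had 10 or more UMIs, against 2 in each MPA+E library. Those barcodes held 401 of the 420 UMIs of MPA+E 1 and 92 of the 108 of MPA+E 2, while placebo 1 and placebo 2 had 3 and 1. Among the fibroblasts, 0.351%, 0.367%, 0.580% and 0.434% of barcodes reached 10. Ube2c, the ubiquitin-conjugating enzyme of the anaphase-promoting complex, had 1, 0, 45 and 29 UMIs and was called higher (adjusted p 0.00651), but 84.4% and 96.6% of its MPA+E UMIs were in 1 barcode per library. Its ratio was 68.1, with an exact 95% counting interval of 11.8 to 2725, and its fitted log2 fold change was 8.17 without placebo 1 and 4.82 without placebo 2. Of the 18 proliferation genes in the files, 6 passed the filter, and those with no placebo UMIs passed through the MPA+E arm.

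The second comparison asked whether the hormone effect differed from that in the fibroblasts, with the library as a term in edgeR's quasi-likelihood model. Of 14784 genes tested, 377 were called (2.55%), 213 with a more positive change in the Rgs5+ barcodes and 164 with a more negative one. The count depended on the library term, since 5 were called without it, and it fell to 220 or 181 when placebo 1 or placebo 2 was dropped and to 124 or 92 when MPA+E 1 or MPA+E 2 was dropped. The interferon-induced list had 12 of 32 genes with a larger change in the Rgs5+ barcodes and none with a smaller one, and its median log2 fold change was 2.10 there and 1.33 in the fibroblasts. Ifit1 stood at 283, 288, 724 and 751 CPM in the fibroblasts, and its log2 change was larger by 3.07 ± 0.264 in the Rgs5+ barcodes (adjusted p 8.14e-18). Cxcl10 stood at 756, 459, 818 and 966 CPM in the fibroblasts (difference 2.90 ± 0.240, adjusted p 1.27e-18). Isg15 had a fitted log2 fold change of 2.36 in the fibroblasts, and its difference of -0.46 was not called (adjusted p 0.555).

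The fitted changes of Fabp5 had opposite signs in the 2 cell types, with a difference of 2.39 ± 0.30 (adjusted p 7.60e-10). Those of Abcc9 did as well, with 31.7, 33.3, 12.3 and 8.74 CPM in the fibroblasts (difference 3.68 ± 0.253, adjusted p 4.24e-24). The contractile list had 7 of 24 genes with a more negative change in the Rgs5+ barcodes and none with a more positive one. The list summed to 1214, 1070, 1091 and 1094 CPM in the fibroblasts, where Acta2 stood at 8.12 to 19 CPM. The largest differences by the model were cell-cycle genes with no placebo UMIs. Top2a, Cenpf, Hist1h1b and Hmmr had 0 UMIs in both placebo libraries and 115, 96, 73 and 40 under MPA+E. Set against a floor of 3 UMIs over the placebo arm, this was 35.3, 29.4, 22.4 and 12.3 times the floor. The exact 95% lower counting limits were 28.2, 23.5, 17.7 and 9.52, and they take UMIs as independent, which UMIs of 1 barcode are not. MPA+E 1 held 105, 78, 71 and 28 of these UMIs, 71.4% to 98.6% of them in 1 barcode. Without that library the values against the floor were 6.00-fold for Top2a, 10.8-fold for Cenpf and 7.19-fold for Hmmr, and Hist1h1b, with 2 UMIs, was under it. In MPA+E 2 as well, 1 barcode held 80.0% of the UMIs of Top2a, 88.9% of those of Cenpf and 83.3% of those of Hmmr. The 4 most negative were Dmkn, Ednrb, Tmem255b and Il1rl1. Dmkn had 50 of its placebo UMIs in placebo 2 and none in placebo 1, and Il1rl1 38 and none. Without placebo 2 both differences turned positive (6.38 and 8.15). With all libraries, their adjusted p-values in the quasi-likelihood test of the difference were 2.87e-11 and 2.69e-06. A small p-value of this test therefore need not mean that both libraries of an arm moved together. Ednrb, an endothelin receptor, stood at 42.5, 201, 107 and 140 CPM in the Rgs5+ barcodes and its arms overlapped.

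Rgs5+ barcodes made up 2.06% and 2.00% of the placebo libraries and 2.21% and 2.12% of the MPA+E libraries. The means differed by 0.135 percentage points, with a two-sided exact permutation p of 0.333, the smallest that 2 against 2 libraries can give. Under the stricter gate the shares were 1.67%, 1.32%, 1.65% and 0.965% and the difference was -0.191 points. Members with at most 5% mitochondrial UMIs were 0.356%, 0.370%, 0.824% and 1.01% of the barcodes, a difference of 0.551 points with the same p of 0.333 by that exact permutation test. Untreated stages of wild-type C57BL/6 females, an adult aged 9 weeks and a pregnancy of 14.5 days, give a scale for the interferon-induced sum, with 1 library each and therefore no test. It was 3665 CPM in the 20 Rgs5+ barcodes of the adult library and 6455 CPM in the 99 of the pregnancy library, between the placebo and MPA+E values.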

How the data were processed

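The values used were UMI counts as deposited, without normalization, for 32285 genes. The authors made them with Cell Ranger 6.1.2 on mm10, per the submitters' processing notes. Members, gene lists and tests were chosen with earlier results of these data known. UMIs of the member barcodes were summed per library, since cells of 1 library are not replicates. The sums were tested with edgeR 4.0.16 (quasi-likelihood, TMM, filterByExpr, Benjamini-Hochberg over all genes tested, adjusted p under 0.05). Gate genes were not tested. Fibroblasts had at least 2 UMIs of Pdgfra, at least 1 of Dcn or Lum, and 0 of Rgs5, Epcam, Pecam1 and Mcam. No doublet caller was run, and the 0 UMIs required of Pdgfra, Epcam and Pecam1 and a limit of 0.5% on fibroblast markers stood in for it. Named by rule were called genes of at least 20 CPM, up to 8 rises and 8 falls of at least 2 times the fibroblast level, 4 of each among the rest and 4 differences from fibroblasts in each direction, plus examples of each list. The scripts were tested on simulated counts. Depth sets the precision, and intervals cover counting error only. Promoters were those of RefSeq on GRCm38.p6 and gene positions those of GENCODE M21, which was not the annotation of the counting. DESeq2 1.42.0 and limma 3.58.1 were alternatives, as were other gates and filters. Values of a few genes, 1 of them on the interferon-induced list, are not reported here.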

Additional observations from a re-analysis of the deposited data

Results flagged for a closer look

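A set of 37 named genes responded differently in the Rgs5+ barcodes than in the fibroblasts of the same libraries by edgeR's quasi-likelihood test of that difference (adjusted p under 0.05). Each value is the log2 fold change in the Rgs5+ barcodes minus that in the fibroblasts, so a positive value means a more positive change in the Rgs5+ barcodes.

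Among interferon-induced genes the differences were 3.07 for Ifit1, 2.90 for Cxcl10, 2.48 for Ifit3b, 1.98 for Ifi27l2a, 1.39 for Psmb8, 1.38 for Ifit3, 1.34 for Irf7, 1.18 for Ly6e, 0.97 for Ifi27, 0.84 for Bst2 and 0.71 for B2m. The difference for Ifi27 came with opposite fitted signs, 0.32 in the Rgs5+ barcodes and -0.70 in the fibroblasts. Among vessel-wall genes they were 3.68 for Abcc9, 3.61 for Kcnj8, 2.14 for Vtn, 1.49 for Agtr1a, -3.63 for P2rx1, -1.44 for Myh11, -1.29 for Mylk, -1.12 for Acta2 and -1.04 for Csrp1. Among matrix genes they were 1.67 for Lamb1, 1.36 for Col5a3 and 0.94 for Col6a1. Others were 4.07 for Sox11, 3.02 for Thbd, 2.39 for Fabp5, 0.79 for Tmem176a and -2.36 for Cck.

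The most extreme values came from genes of few barcodes or of very low fibroblast levels. Ube2c gave 5.85, and Top2a, Cenpf, Hist1h1b and Hmmr gave 13.56, 13.49, 12.92 and 12.37, fitted values that depend on the prior count because these 4 had no placebo UMIs. Dmkn gave -6.14 and Il1rl1 -4.19, with 50 and 38 UMIs in placebo 2 from 2 barcodes and 1 barcode. Ednrb gave -4.84 and Tmem255b -4.68, with at most 0.40 CPM in the fibroblasts. Fibroblast levels were low for Cck (0.065, 0.168, 0.025 and 0.480 CPM) and Myh11 (0.817, 2.16, 0.854 and 5.56 CPM) as well, each highest in MPA+E 2.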

How the results depend on the processing

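The 61 calls became 296 with no filter on low counts and 107 under a stricter gate (at least 3 Rgs5 UMIs and 2 of the other markers). They became 98 at a fibroblast marker share of at most 0.5%, 96 with equal numbers of barcodes and 39 at a mitochondrial limit of 5%. In barcodes with no Myh11 or Cnn1 UMI they became 0 (107 at an unadjusted p under 0.05). In sets chosen after seeing the data, 22 of 3550 tested genes were called with an Abcc9 or Kcnj8 UMI, 12 of them higher (54.5%). With Myh11 or Cnn1 alone 24 of 6478 were called, all higher. Leaving out single libraries gave 109 to 507. The share of calls that were higher, 93.4%, was 73.6% with no filter, 69.2% at the 5% limit, 46.7% without MPA+E 2 and 67.8% without MPA+E 1. DESeq2 gave 65 and limma-voom 43 calls. With a replicate block, a pairing by number that the labels do not explain, 209 genes were called (147 higher), 9 contractile genes lower among them; deviations of the same number correlated at 0.179. Differences from fibroblasts numbered 377, 95 with the replicate block in place of the library, 5 with neither and 92 to 220 with 1 library left out. The difference in share was -0.191 points under the stricter gate and 0.0897 to 0.181 with 1 library left out.

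Signs turned in the barcodes with no Myh11 or Cnn1 UMI for Adgrf5 (-0.70), Tmem176a (-0.063), Ifi27 (-0.056), Abcc9 (-0.54), Kcnj8 (-0.49), Vtn (-0.080), Acta2 (0.69), Col6a1 (-0.31) and Gpx3 (-1.76). The difference for Dmkn was 5.56 at the low fibroblast share and -13.46 to 6.38 with 1 library left out, and that for Il1rl1 was 6.17 at the low fibroblast share, 8.36 under the stricter gate and -5.16 to 8.15 with 1 library left out. Of the 31 interferon-induced genes tested, 22 were called, 15 by limma-voom, 28 with the replicate block and 13 of 29 at the 5% limit, and all were positive in these fits. The causes were not tested.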

Other observations

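Some levels differed between libraries of the same arm. Ednrb, a receptor for endothelins, stood at 42.5 CPM in placebo 1 and 201 CPM in placebo 2, and at 107 and 140 CPM in the MPA+E libraries. The sum of 22 glucocorticoid- and progestin-responsive genes stood at 12610 and 18871 CPM in the placebo libraries and 9475 and 21620 CPM in the MPA+E libraries, so the arms overlapped. The immediate early and heat shock sum stood at 58057, 48942, 51676 and 43274 CPM in the same order.

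Rgs5+ barcodes of the pregnancy library (day 14.5, 99 barcodes, 1 library, no test) stood at 356 CPM of Art3, 406 CPM of Fabp5, 227 CPM of Tspan15 and 129 CPM of Adgrf5. Each of these values lay above both MPA+E libraries. Rergl stood at 31.3 CPM (8 UMIs), Chchd10 at 7.82 CPM (2 UMIs) and Cck at 50.8 CPM (13 UMIs) there, below both MPA+E libraries. Ifit1 stood at 50.8 CPM (13 UMIs) in it, near the placebo libraries. In the adult library, with 20 such barcodes, levels rested on few UMIs, with 16 UMIs of Art3 (270 CPM), 9 of Fabp5 (152 CPM), 4 of Tspan15 (67.6 CPM), 4 of Adgrf5 (67.6 CPM), 4 of Cck (67.6 CPM), 3 of Chchd10 (50.7 CPM) and 1 of Rergl (16.9 CPM). These stages were untreated, and the median depth of these barcodes was 2239 UMIs in the pregnancy and 2951.5 UMIs in the adult library.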
